A study of Mus musculus with 2 samples.

Results

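The genes described here are markers of neural crest and Schwann cell precursors, of neurons, and of the neuroendocrine cells of the airway lining in the embryonic lung. The set has 29 genes, 5 of neural crest and Schwann cell precursors, 12 of neurons and 12 of neuroendocrine cells and their secretory granules, out of 19938 genes on the array. A gene was taken as a member when a probe set (the group of probes that reads a gene) carried exactly 1 gene symbol in the platform annotation and that symbol was on the list. All 29 were found, each read by 1 probe set, so no member had a repeat reading on the same array. The members were listed by name, with earlier results of these data known.

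Gene expression was compared between lungs of mouse embryos at E13.5 labelled as Etv4;5 knockout (KO) and lungs labelled wild type (WT). Etv4 and Etv5 are related ETS transcription factors that act downstream of fibroblast growth factor signals in the lung epithelium. RNA of 3 samples per genotype was pooled in equal amounts and read on 1 Affymetrix array, so each group is 1 array and no test across samples could be made. The labels call the mutant a knockout, a DKO and a CKO. The strain, the sex of the embryos, a Cre line and the deleted parts of the genes are not given in the sources used here.

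Neural crest cells of the vagal level enter the foregut and follow its branches into the lung, where they form Schwann cell precursors and small ganglia along the airway smooth muscle. Neuroendocrine cells are not of neural crest origin: they arise within the airway epithelium, are among its earliest cells to differentiate, and store peptides and amines in granules shared with neurons. Both kinds of cell are rare in the lung, and whole lung RNA reads them against a large excess of mesenchyme and epithelium.

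Values are given on the log2 scale as deposited, and differences are KO minus WT. Medians over all 35557 probe sets were 7.58 on the KO array and 7.60 on the WT array. The limit for a measured gene was the array median, reached by the brighter value of 11045 genes. Of these, 95% differed by between -0.22 and 0.20. In 618 measured genes read by 2 probe sets, the differences of both probe sets lay 0.04 apart at the median. At the 90th percentile they lay 0.18 apart. This gap is the closest available measure of technical spread. Both probe sets were read on the same arrays and pools, so it leaves out spread between arrays and between pools. Etv4 stood at 6.96 in KO and 7.59 in WT, and Etv5 at 11.28 in KO and 11.51 in WT. Where these probe sets lie relative to the deletion is unknown, so they do not check the labels. Sex-linked genes set the pools apart. Xist, transcribed from the inactive X chromosome, stood at 5.74 in KO and 12.34 in WT, while Y-linked Uty was higher in KO by 0.64 and Eif2s3y and Kdm5d each by 0.53. Of the 29 members, Syp is X-linked and none is Y-linked.

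Among the 10 measured members, 2 stood outside the range that held 95% of measured genes. The other 19 members lay under the limit. Exactly equal values were found for 12 of the 29, and these are not read as a lack of change. Ednrb, which encodes the endothelin receptor B, was lower in KO by 1.40-fold. Gfra1, which encodes the co-receptor for the nerve growth signal GDNF, was higher in KO by 1.23-fold. They were 2 of 10 measured members, where 5.01% of all measured genes lay outside that range. At the 1.5-fold threshold 0 of 10 members were counted, against 0.335% of measured genes, and at 2-fold 0 of 10, against 0.0905%. At a lower threshold, 0.32 on the log2 scale, 1 of 10 was counted (Ednrb), against 1.61% of measured genes.

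The promoter windows of Ednrb and Gfra1 are shown because these members lay furthest apart between the pools, and that of Ddc because it had the largest difference among the neuroendocrine genes. Each runs 5′ to 3′ over 300 bases, most of them before and the last ones after a start of the gene in RefSeq. Ddc has 2 such windows, of which 1 is printed. Capitals mark matches on either strand to CCGGAA, the core bound by ETS factors, to ACAAAG, a core bound by SOX factors such as Sox10, and to CAGATG, an E-box form bound by proneural factors such as Neurod1.
Ednrb (GRCm38.p6, chr14:103843652-103843951, minus strand): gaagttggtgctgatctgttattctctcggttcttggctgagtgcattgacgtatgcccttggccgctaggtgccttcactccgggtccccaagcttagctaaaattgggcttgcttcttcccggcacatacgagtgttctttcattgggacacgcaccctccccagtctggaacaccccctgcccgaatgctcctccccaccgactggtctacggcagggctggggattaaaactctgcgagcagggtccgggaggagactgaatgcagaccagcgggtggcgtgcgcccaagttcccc
Gfra1 (GRCm38.p6, chr19:58455349-58455648, minus strand): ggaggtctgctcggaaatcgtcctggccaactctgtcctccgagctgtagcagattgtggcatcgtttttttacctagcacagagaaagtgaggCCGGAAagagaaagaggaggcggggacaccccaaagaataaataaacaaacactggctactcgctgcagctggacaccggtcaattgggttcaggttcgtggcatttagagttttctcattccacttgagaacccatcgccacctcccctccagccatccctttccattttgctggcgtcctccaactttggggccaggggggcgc
Ddc (GRCm38.p6, chr11:11890359-11890658, minus strand): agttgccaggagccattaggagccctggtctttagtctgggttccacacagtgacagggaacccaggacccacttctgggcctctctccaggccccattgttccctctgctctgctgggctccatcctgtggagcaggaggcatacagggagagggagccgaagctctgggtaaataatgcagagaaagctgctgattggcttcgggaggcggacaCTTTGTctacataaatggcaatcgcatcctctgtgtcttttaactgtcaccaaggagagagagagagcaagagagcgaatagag
The Gfra1 window held 1 ETS core and the Ddc window 1 SOX core, while none of the searched letters occurred in the Ednrb window. RefSeq windows were at hand for 23 of the 29 members. The ETS core occurred in 2 of these 23 genes (8.7%), Gfra1 and Gfi1, against 16.7% of 27025 genes. The SOX core occurred in Scg3 and Ddc, 8.7% of members against 21% of genes. The E-box form occurred in Fabp7, Elavl4 and Hand2, 13% of members against 19.2% of genes. These are matches of letters in short windows, and binding was not measured here.

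**Figure D1:**
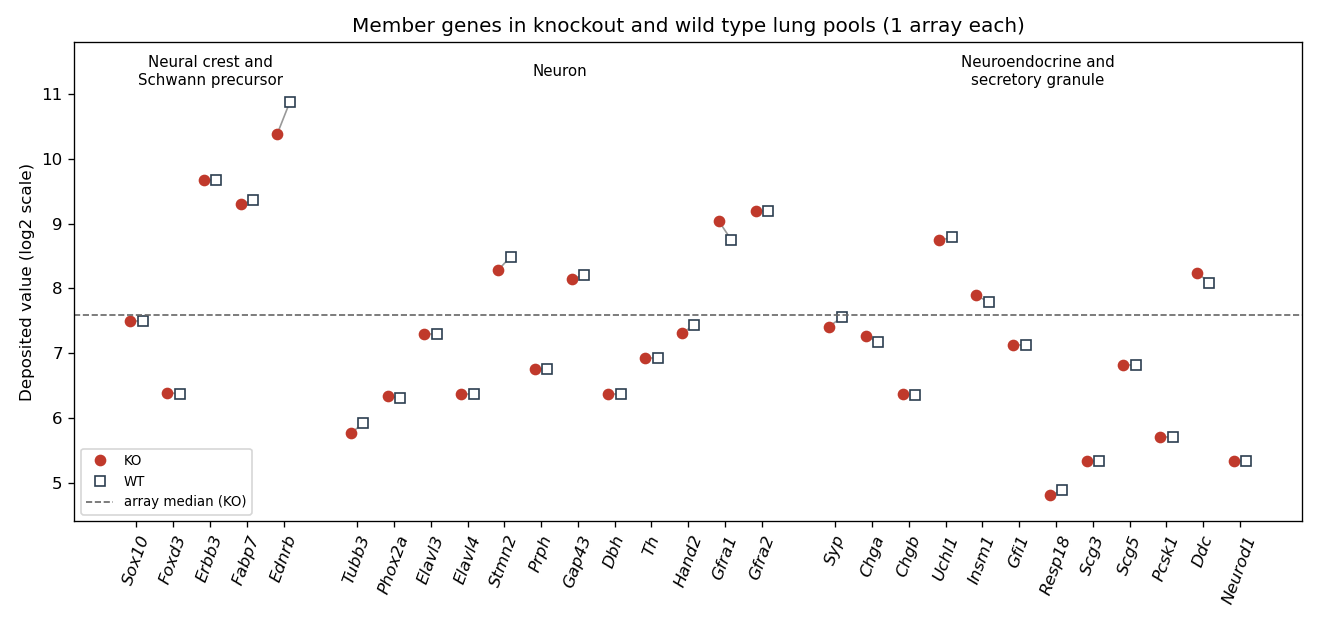
Deposited log2 value of each of the 29 members (y axis) in the KO pool (filled circles) and the WT pool (open squares), 1 array each, by group of genes. The dashed line is the median of the KO array, 7.58. Levels of different genes come from different probes and are not to be compared. Ednrb is lower and Gfra1 higher in KO, and 12 members have exactly the same value on both arrays.

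How much of this signal was read above the dimmer part of the array was asked first. Only 10 members counted as measured: Erbb3, Fabp7 and Ednrb of the neural crest group, Stmn2, Gap43, Gfra1 and Gfra2 of the neuron group, and Uchl1, Insm1 and Ddc of the neuroendocrine group. Several narrow markers of these cells lay under the limit, among them Sox10, Phox2a, Elavl3, Elavl4, Th, Dbh, Chga and Neurod1. Others, such as Insm1 and Stmn2, were measured. For comparison, all 24 matched genes of a list shared by lung epithelium were measured, as were all 14 endothelial genes. Other lists fell partly under the limit, with 7 of 12 heart muscle, 4 of 10 foregut and 4 of 11 matched erythroid genes measured. Levels of different genes come from different probes, so these counts do not compare amounts of RNA. In whole tissue, fewer cells of a type and less RNA per cell cannot be told apart.

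Exactly equal values on both arrays were frequent. They were found for 12 of 29 members (41.4%), against 33.5% of all 19938 genes. Of the 19 members under the limit 11 were equal, where 41.1% of all genes under the limit were. Of the 10 measured members only Erbb3 was equal, against 27.3% of measured genes. No reason for equal values is given in the sources used here, so an equal value is not read as a measured absence of change. Because of them, the balance of signs depended on the scaling between arrays. Of the 29 members 8 were higher and 9 lower as deposited, 20 and 9 with equal array medians, and 10 and 19 after quantile normalization. Over all genes the split as deposited was 6653 higher and 6614 lower. Over measured genes alone the split was 2836 higher and 5193 lower as deposited, against 6713 and 4344 with equal medians. Signs of the smallest differences, and counts of higher and lower genes in the lists below, therefore carry little.

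Among neural crest and Schwann cell precursor genes, Ednrb stood apart from the rest of its group. Its value was 10.39 in KO and 10.88 in WT, a difference of -0.49. Of 11045 measured genes, 31 were at least as far lower in KO, Ednrb included. Among 2020 measured genes within 0.5 of its mean level, 7 differed by as much in either direction. Of the 618 genes with 2 probe sets, 3 (0.49%) had a gap between them as large as this difference.

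Of the other 4 crest genes, only Fabp7 was both measured and unequal between the arrays. The equal values among them are not read as a lack of change. Erbb3, the neuregulin receptor that Schwann cell precursors need to survive along axons, was at 9.68 on both arrays. Fabp7, a fatty acid binding protein of glial precursors, was at 9.30 in KO and 9.36 in WT, a difference of -0.06. Both of these lay well inside the range that held most genes. Sox10, the transcription factor that marks migrating crest and glia, was at 7.50 on both arrays, just under the limit. Foxd3, which maintains crest progenitors, was at 6.39 in KO and 6.37 in WT, also under the limit. The median of the 3 measured crest genes was -0.06, that of all 5 was 0.00, and that of all measured genes was 0.00.

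The ligands of Ednrb were lower in KO as well, by smaller amounts. Edn3, the ligand of crest cells in the gut, stood at 8.76 in KO and 8.90 in WT, a difference of -0.14. Edn1, made by endothelium and epithelium, stood at 7.71 in KO and 7.80 in WT, a difference of -0.09. Both differences lay inside the range of 95% of measured genes, and Ednrb, Edn3 and Edn1 were lower under each of 3 other scalings. The other endothelin receptor gene, Ednra, was not analysed here. Ednrb is also expressed in endothelium and smooth muscle, whose markers are therefore given beside it. All 12 measured smooth muscle genes of 13 were lower in KO, with a median of -0.23, and Synpo2 and Myocd differed by -0.49 and -0.39. The 14 measured endothelial genes had a median of -0.02, with 10 lower and 2 higher (7 and 7 with equal array medians), and Sox17 and Sox18 differed by -0.15 and 0.11. Mesenchyme genes had a median of -0.09 over 15 measured, 13 of them lower and 2 higher, and Fgf10 and Foxf1 differed by 0.40 and -0.40. Beside these counts, 47% of all measured genes were lower as deposited. The part of these cells in the Ednrb difference was not tested.

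Genes of the neuregulin signal had smaller differences than Ednrb. Nrg1, the axonal ligand of Erbb3, stood at 8.03 in KO and 8.06 in WT. Erbb2, the partner with which Erbb3 signals, stood at 9.73 in KO and 9.68 in WT. Erbb4, a related neuregulin receptor, was under the limit at 7.20 in KO and 7.39 in WT, a difference of -0.19. All 4 genes of this signal, Erbb3 included, lay inside the range of 95% of measured genes.

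**Figure D2:**
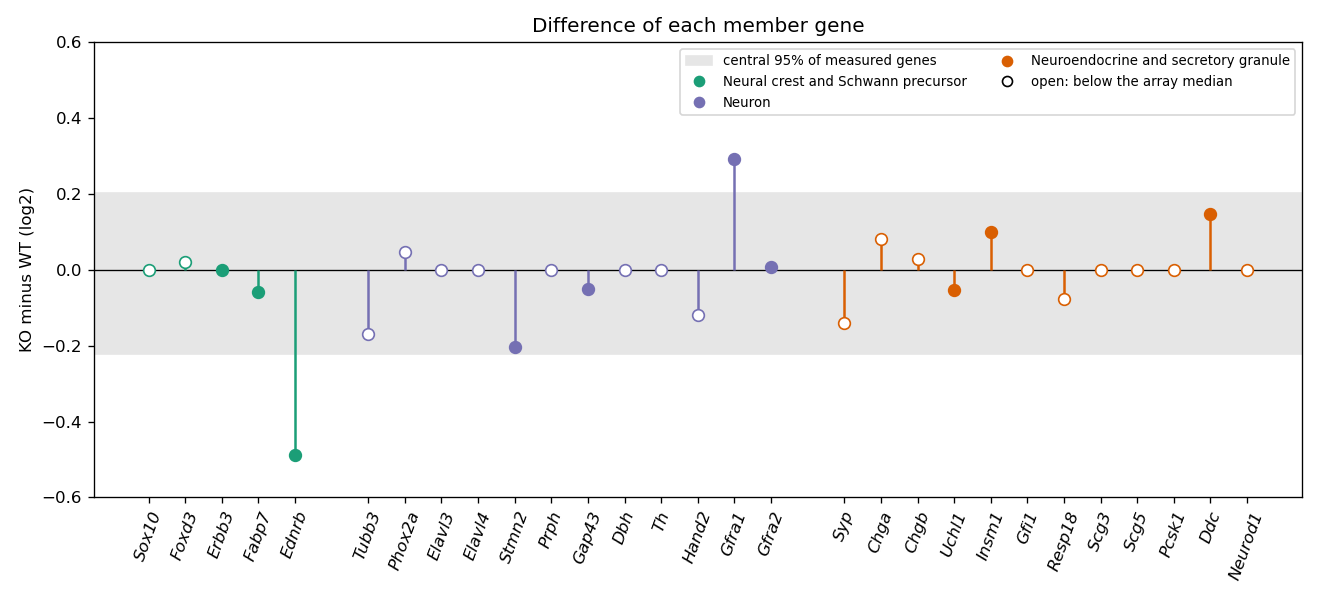
KO minus WT difference on the log2 scale (y axis) for each member, 1 array per group. Filled points are measured members, open points lie below the array median, and the grey band holds the central 95% of measured genes, from -0.22 to 0.20. Ednrb at -0.49 and Gfra1 at 0.29 are the points outside the band.

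A list of other crest and Schwann cell precursor genes was read for comparison. Of 25 listed, 23 were matched and 11 measured, and these gave 6 higher values, 5 lower ones and a median of 0.00. None reached 1.5-fold. The largest differences were those of Itga4, an integrin subunit of migrating cells, at 8.77 in KO and 9.01 in WT (-0.24), and of Zeb2, a transcription factor of crest and mesenchyme, at 11.28 in KO and 11.50 in WT (-0.21). The neurotrophin receptor Ngfr, which crest cells carry, stood at 9.03 in KO and 9.13 in WT.

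Neuron genes had no common direction. Among the 4 measured members, Gfra1 and Gfra2 were higher in KO and Stmn2 and Gap43 lower, and their median was -0.02, where 25.7% of measured genes were higher and 47% lower. Over all 12, 3 were higher, 4 lower and 5 equal, beside 33.4% higher and 33.2% lower over all genes, and the median was 0.00.

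Receptors of the GDNF family gave the largest positive value. Gfra1 stood at 9.04 in KO and 8.75 in WT, a difference of 0.29. Of 11045 measured genes, 124 were at least as far higher in KO, Gfra1 included, and among 3286 of similar level 77 differed by as much in either direction. A gap as large as this was seen between probe sets in 12 of 618 genes (1.94%). Gfra2, the co-receptor for neurturin, was at 9.20 on both arrays to 2 decimals, with a difference of 0.0067. Ret, the kinase that both co-receptors engage, stood at 8.35 in KO and 8.21 in WT, a difference of 0.14. The ligand gene Nrtn, which encodes neurturin, stood at 7.79 in KO and 7.67 in WT (0.12), and Gdnf lay under the limit at 7.28 in KO and 7.24 in WT. The ligand gene Artn was at 6.73 in KO and 6.76 in WT, under the limit, and the ligand gene Pspn at 7.61 on both arrays. The co-receptor genes Gfra3 (under the limit) and Gfra4 stood at 6.97 and 7.95 in KO and at 6.95 and 7.85 in WT. Of these 9 genes 7 were higher, 1 lower and 1 equal as deposited, where 33.4% of all genes and 25.7% of measured genes were higher. After loess 6 were higher and 3 lower, where 6170 of 11043 measured genes were higher. With equal array medians 8 were higher and 1 lower, where 6713 of 11058 measured genes were higher. The shares of measured genes leave out genes such as Gdnf, Artn and Gfra3, which lay under the limit. Only Gfra1 lay outside the range of 95% of measured genes. Gfra1 is not restricted to neurons, and its cell source in these lungs was not tested.

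**Figure D3:**
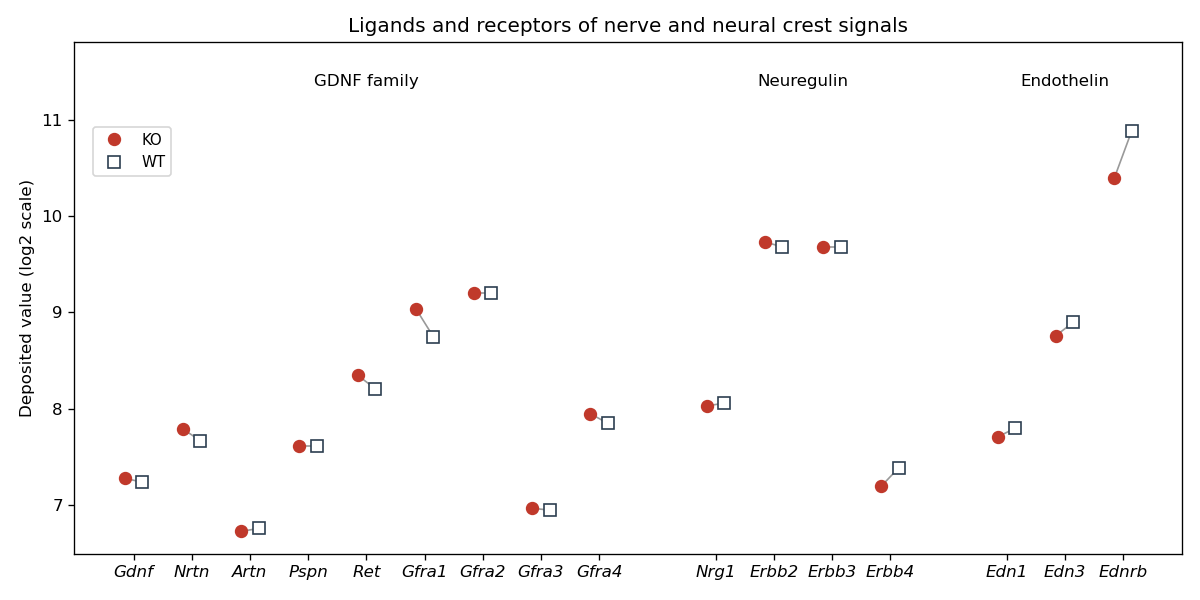
Deposited log2 values (y axis) of ligands and receptors of the GDNF family, neuregulin and endothelin signals in the KO pool (filled circles) and the WT pool (open squares), 1 array each. The plotted GDNF family genes differ by between -0.02 (Artn) and 0.29 (Gfra1), the neuregulin genes by between -0.19 (Erbb4) and 0.05 (Erbb2), and Ednrb by -0.49.

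Stmn2, Gap43 and Tubb3, known from growing axons and young neurons, had differences inside the general spread. Stmn2, a microtubule-destabilising protein of growth cones, stood at 8.28 in KO and 8.49 in WT, a difference of -0.20. This lay just inside the range of 95% of measured genes, and 44 of 618 genes (7.12%) had a gap between probe sets as large. Gap43, a membrane protein of growing axons, stood at 8.15 in KO and 8.20 in WT, a difference of -0.05. Tubb3, the neuronal tubulin, was under the limit at 5.76 in KO and 5.92 in WT, a difference of -0.17. With a floor at the 25th percentile of each array the Tubb3 difference was 0. Of measured genes, 47% were lower, so the signs of these members are not set apart.

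The remaining structural and RNA-binding members were dim and equal on both arrays. The peripheral neuron filament gene Prph was at 6.75, and the RNA-binding protein genes Elavl3 and Elavl4 at 7.30 and 6.36, on both arrays. All 3 were under the limit, and their equal values are not read as a lack of change. Among other structural neuron genes, Map2, a microtubule protein of dendrites, stood at 8.82 in KO and 9.11 in WT (-0.29). Nefh, a neurofilament gene, stood at 7.66 in KO and 7.53 in WT (0.12). Nefl, Nefm and Ina, under the limit, were at 7.27, 6.69 and 7.05 on both arrays, and these equal values are likewise not read as a lack of change. Mapt, also under the limit, stood at 6.72 in KO and 6.69 in WT.

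Genes of autonomic identity and catecholamine synthesis were likewise under the limit, apart from Ddc. Phox2a, a homeobox factor of autonomic neurons, stood at 6.34 in KO and 6.30 in WT. Hand2, a factor of sympathetic neurons that heart and some mesenchyme also express, stood at 7.31 in KO and 7.43 in WT, a difference of -0.12. Heart muscle genes, listed because heart tissue can accompany dissected lung, were measured in 7 of 12 cases and had a median of 0.00, with Myh7 at 0.30 and Myl7 at -0.25. Th, which makes the dopamine precursor, was at 6.92 and Dbh, which turns dopamine into noradrenaline, at 6.37 on both arrays. Ddc, which acts between them and also makes serotonin, stood at 8.24 in KO and 8.09 in WT, a difference of 0.15.

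A list of other neuron genes held 38 names, of which 36 were matched and 15 measured. Of these 5 were higher, 5 lower and 5 equal (10 higher and 5 lower with equal array medians), with a median of 0.00, and 0 reached 1.5-fold. Gal, which encodes the neuropeptide galanin, had the largest difference, 0.56, at 8.25 in KO and 7.69 in WT. Only 21 of 11045 measured genes were at least as far higher, Gal included. Dcx, a microtubule protein of young neurons, stood at 9.63 in KO and 9.29 in WT, a difference of 0.34, and it is X-linked. Rtn1, a reticulon of neurons and neuroendocrine cells, stood at 8.67 in KO and 8.34 in WT, a difference of 0.33. Gal, Dcx and Rtn1 lay above the range of 95% of measured genes and Map2 below it.

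Guidance and growth signals for nerves, which other lung cells make, spread more widely. Of 33 listed, 29 were matched and 20 measured, 7 of them higher and 11 lower (10 and 10 after quantile normalization), with a median of -0.03. Sema3c, a secreted guidance protein, stood at 9.92 in KO and 9.44 in WT, a difference of 0.48. Ntn1, which encodes netrin 1, stood at 8.07 in KO and 8.44 in WT, a difference of -0.37. Both lay outside the range of 95% of measured genes, in opposite directions, and neither reached 1.5-fold.

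Of the 12 neuroendocrine genes 9 lay under the limit, and the few measured had a small positive median. Of 3 measured members Ddc and Insm1 were higher and Uchl1 was lower, with a median of 0.10. Among all measured genes 25.7% were higher and 47% lower. Over all 12 members 4 were higher, 3 lower and 5 equal, beside 33.4% higher and 33.2% lower over all genes. Their median was 0.00, a value set by the 5 equal genes, which are not read as a lack of change. The positive median covers only the 3 genes that passed the limit.

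The transcription factors were led by Insm1, a zinc finger protein needed for neuroendocrine differentiation, at 7.89 in KO and 7.79 in WT, a difference of 0.10. Gfi1, a zinc finger repressor that acts in neuroendocrine and blood cells, was at 7.12 on both arrays. Neurod1, a basic helix-loop-helix factor of endocrine cells and neurons, was at 5.33 on both. Only Insm1 of these 3 was measured, and its difference lay inside the general spread.

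The 6 granule protein genes among the members were under the limit. Chga and Chgb, the chromogranins that pack amines and peptides, stood at 7.26 and 6.37 in KO and at 7.17 and 6.35 in WT. Scg3, which binds chromogranin A in the granule, was at 5.34, and Scg5, the chaperone of a prohormone convertase, at 6.82 on both arrays. Pcsk1, a convertase that cuts prohormones, was at 5.70 on both. Resp18, a granule protein of endocrine cells, stood at 4.80 in KO and 4.88 in WT. The largest difference among these 6 was 0.08, for both Chga and Resp18 after rounding.

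Uchl1 and Syp, general markers of neurons and neuroendocrine cells, differed by amounts inside the general spread. Uchl1, a ubiquitin hydrolase of neurons and neuroendocrine cells, stood at 8.74 in KO and 8.79 in WT, a difference of -0.05. Syp, the synaptic vesicle protein synaptophysin, stood at 7.41 in KO and 7.55 in WT, a difference of -0.14, under the limit. Because Syp is X-linked and Xist differed by -6.60, the part of the pools' sex makeup in this value was not tested.

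Markers of lung epithelium, in which neuroendocrine cells lie, were mostly higher in KO, as were Insm1 and Ddc, while Uchl1 was lower (-0.05). Of 24 measured epithelial genes 19 were higher and 3 lower in KO, where 25.7% of measured genes were higher and 47% lower. Their median was 0.13, and Krt18 and Krt19 differed by 0.47 and 0.45. The differences of Insm1 (0.10) and Ddc (0.15) lay on either side of that median. The part of the epithelial share in them was not tested. Of 32 other neuroendocrine genes 28 were matched and 12 measured, 5 of them higher, 4 lower and 3 equal (8 higher and 4 lower with equal array medians), with a median of 0.00. The largest differences were those of Cxcl13, a chemokine, at 9.02 in KO and 9.21 in WT (-0.20), and of Syt7, a calcium sensor of vesicle release, at 8.05 in KO and 7.89 in WT (0.16). The peptide gene Grp was at 8.03 on both arrays. Granule genes of this list that were measured were Cpe, at 8.03 on both arrays, Pam, at 9.85 in KO and 9.92 in WT, and Pcsk1n, at 7.90 in KO and 7.81 in WT. Cpe and Pam encode enzymes that finish peptide hormones, and Pcsk1n an inhibitor of prohormone cleavage.

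**Figure D4:**
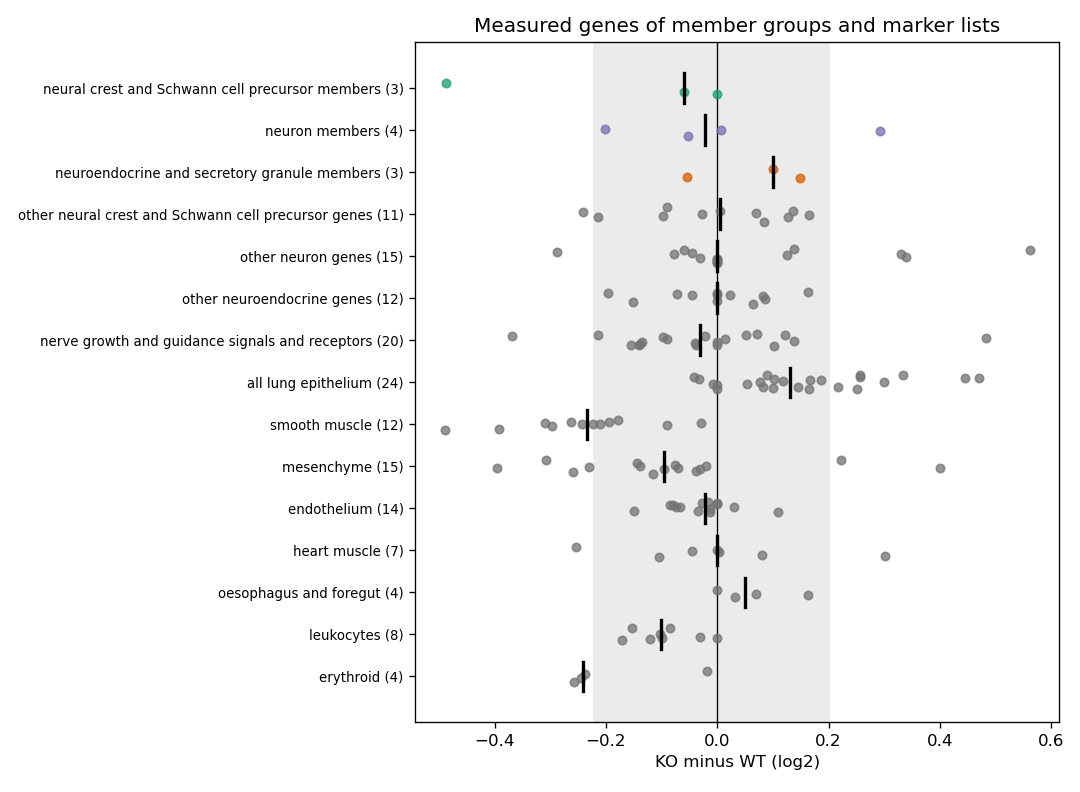
KO minus WT difference on the log2 scale (x axis) for measured genes of the 3 member groups (coloured) and of the comparison lists (grey), with the number measured in brackets, 1 array per group. Black bars are medians and the grey band holds the central 95% of measured genes. The neuroendocrine and epithelial medians are 0.10 and 0.13, and the smooth muscle median is -0.23.

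Set side by side, the medians of measured members were -0.06 for 3 crest genes, -0.02 for 4 neuron genes and 0.10 for 3 neuroendocrine genes. Each group holds values of both kinds or equal values, and over all matched members the 3 medians were 0.00, as was that of all 19938 genes. With 1 array per pool, differences among the groups could not be tested. Foregut markers, listed because oesophagus carries many crest-derived neurons, were measured in 4 of 10 genes with a median of 0.05, and Nkx2-3 and Sox2 differed by 0.16 and 0.07. Leukocyte markers, relevant to Gfi1, were lower in 7 of 8 measured genes with a median of -0.10, and Mrc1 and Csf1r differed by -0.17 and -0.15. Erythroid markers were lower in 4 of 4 measured genes with a median of -0.24, and Slc4a1 and Hba-x differed by -0.26 and -0.25. After quantile normalization 3 of these 4 were lower and 1 higher. Of the 7 erythroid genes under the limit 2 were higher, 2 lower and 3 equal. As deposited, 47% of all measured genes were lower.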

How the data were processed

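Total RNA was prepared with a column kit and labelled with biotin for Affymetrix arrays, per the labels' protocols. The authors' deposited values, 1 for each probe set on each array, were read as log2 values from their range (2.69 to 14.4); log base, summary method, normalization and build are not given in the sources used here. Of 35557 probe sets 21789 had 1 gene symbol, 1621 several and 12147 none. Each gene took the probe set with the highest mean. Values were used as deposited, with no floor or offset. RefSeq tables of GRCm38.p6 gave chromosomes and promoter windows.

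With 1 array per group, no p-value or SD was computed, and the number of arrays limits precision. Counting was tested on simulated data. Named genes are all 29 members, Etv4, Etv5, sex-linked genes, ligands and receptors of members, and per comparison list those past 1.5-fold or else the 2 furthest apart. Ngfr, Grp, Erbb4, Artn, Pspn, Gfra3, Gfra4, Rtn1, Map2, Nefh, Nefl, Nefm, Ina, Mapt, Cpe, Pam and Pcsk1n were added after their values were seen. Members, lists and motifs were chosen with earlier results of these data known. Alternatives were 3 scalings, the mean over probe sets, 2 other filters, a floor under dim values and other thresholds. Software was Python 3.11.15 with pandas 2.3.3, numpy 2.4.6, statsmodels 0.14.6 and matplotlib 3.10.9.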

Additional observations from a re-analysis of the deposited data

How the results depend on the processing

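No member reached 1.5-fold or 2-fold under any scaling or filter tried, and at a threshold of 0.32 on the log2 scale the count was 1 (Ednrb). Without the level filter the medians of the crest and of the neuroendocrine members were both 0, against -0.06 and 0.10 with it, because more genes under the limit entered. Of the 19 members under the limit 11 had equal values, so these medians of 0 are not read as a lack of change. The filter at the 75th percentile left 3 members, all of the crest group, so the neuron and neuroendocrine medians had no value there. Over the settings Ednrb lay between -0.49 and -0.47 and Gfra1 between 0.29 and 0.32. No member changed sign, but the 12 equal members became higher under equal medians (12 of 12) and mostly lower under loess (11) and quantile normalization (10), so their signs are set by the scaling. The median of all members (-0.03) was 0.0010 under quantile normalization, and equal medians moved all genes by 0.017. With the floor at the 25th percentile, 2 members at dim levels, Tubb3 and Resp18, moved by more than 0.04, both to 0. Leaving out the X-linked Syp, a setting chosen after seeing the data, changed no median of measured members, since Syp was not among them. No array could be left out. No paired analysis was possible because each group has 1 array.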
